A study of Saccharomyces cerevisiae with 24 samples.

Results

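The 8 core histone genes of budding yeast lie as 4 divergent pairs, each an H2A gene with an H2B gene or an H3 gene with an H4 gene, transcribed away from a shared promoter. All peaks of short protected fragments were taken from 4 windows of the R64 build that span both genes of a pair and a short margin past each stop codon, which are HTB1-HTA1 on chromosome IV, HTA2-HTB2 and HHF1-HHT1 on chromosome II and HHT2-HHF2 on chromosome XIV. The windows held 28 of the 58467 peaks of the series, with 10 in the shared promoters between the start codons, 16 in the coding sequences and 2 beyond a stop codon. Of the 28 peaks, 14 were high-confidence, meaning that log2(normalised reads + 1) summed over all libraries exceeded 75, against 8217 in the series. Of these 14, 9 lay in promoters, 4 in coding sequences and 1 beyond a stop codon. Normalised reads are the reads of a peak divided by the library's total over all peaks and multiplied by the mean total.

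Sub-nucleosomal MNase-seq sequences DNA fragments shorter than a nucleosome that survive digestion by micrococcal nuclease, which are left where proteins such as transcription factors cover the DNA. The sml1∆ control (W303 background, sml1_delta::URA3) was compared with the sml1∆ SSDDCS strain (sml1_delta::HphNT), which carries Sld7 with Cdc45 at leu2, SLD3-A with Dbf4-A at his3 and Sld2 with Dpb11 at trp1, each couple of genes under the galactose-inducible GAL1-10 promoter. Both strains thus lacked SML1, a ribonucleotide reductase inhibitor, both carried the rad5-535 allele of their W303 MATa background, and both were grown in raffinose, arrested in G1 with alpha factor, given galactose and released into S phase in galactose, so that galactose itself did not differ between them. Each strain was sampled in G1 and 5, 10, 15, 20, 25, 30, 35, 40, 45, 50 and 60 min after release, which gave 24 libraries with 1 library per strain and time point. With no replicate libraries, no significance test was run, and every interval below is a 95% exact interval that covers counting error only. Words such as rose and fell describe the reads of these libraries. The total per library lay between 481930 and 536253 reads, and ribosomal DNA took 26.0% to 36.8% of them. The 28 peaks held 7244 reads over all libraries.

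Core histones package DNA into nucleosomes, and cells need new ones while DNA is being copied, so histone genes are expressed in S phase and are shut outside it. In budding yeast the activators Spt10, which binds a paired upstream activating sequence (UAS), and the cell cycle factors SBF and MBF act on these promoters. The HIR complex, with Asf1 and Rtt106, represses every pair except HTA2-HTB2.

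The genes and their positions came from the RefSeq annotation of R64, which gives coding sequences without untranslated regions. HTB1 (YDR224C, minus strand, chromosome IV 914317 to 914712) and HTA1 (YDR225W, plus strand, 915530 to 915928) share a promoter of 817 bp, and the nearest annotated origin, ARS428, lies 279 bp from HTB1. HTA2 (YBL003C, minus strand, chromosome II 235394 to 235792) and HTB2 (YBL002W, plus strand, 236492 to 236887) share 699 bp, with ARS208 at 900 bp. HHF1 (YBR009C, minus strand, chromosome II 255373 to 255684) and HHT1 (YBR010W, plus strand, 256331 to 256741) share 646 bp, with ARS209 at 290 bp. HHT2 (YNL031C, minus strand, chromosome XIV 575640 to 576050) and HHF2 (YNL030W, plus strand, 576727 to 577038) share 676 bp, and their nearest annotated origin, ARS1423, lies 7116 bp away. HTA1 and HTA2 encode H2A, HTB1 and HTB2 H2B, HHT1 and HHT2 H3, and HHF1 and HHF2 H4.

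The sequences under 8 of the promoter peaks are shown because they differ in the motifs that they hold and, as described further on, in their course over time. Each line gives the plus strand of R64 for 50 bp on either side of the deposited peak position, with motif matches on either strand in capitals. The reference strain is S288C, so W303 may differ at single bases.
HTB1-HTA1, chrIV:914775-914875, TATA sequences in capitals: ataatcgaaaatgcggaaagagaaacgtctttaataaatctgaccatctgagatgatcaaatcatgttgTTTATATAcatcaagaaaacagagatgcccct
HTB1-HTA1, chrIV:914925-915025, SBF sites in capitals: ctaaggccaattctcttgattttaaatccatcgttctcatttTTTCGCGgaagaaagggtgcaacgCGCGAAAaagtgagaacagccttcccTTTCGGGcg
HTB1-HTA1, chrIV:915075-915175, histone UAS in capitals: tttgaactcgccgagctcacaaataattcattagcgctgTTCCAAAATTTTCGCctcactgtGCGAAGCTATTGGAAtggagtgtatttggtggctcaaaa
HTA2-HTB2, chrII:236081-236181, histone UAS and MCB in capitals: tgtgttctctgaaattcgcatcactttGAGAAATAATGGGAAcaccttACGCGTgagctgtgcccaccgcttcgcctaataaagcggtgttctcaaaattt
HTA2-HTB2, chrII:236231-236331, TATA sequence in capitals: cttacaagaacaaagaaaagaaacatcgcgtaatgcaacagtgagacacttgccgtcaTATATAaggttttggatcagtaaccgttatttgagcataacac
HHF1-HHT1, chrII:255935-256035, histone UAS in capitals: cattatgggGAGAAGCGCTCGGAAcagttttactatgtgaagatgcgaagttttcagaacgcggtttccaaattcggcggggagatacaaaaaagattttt
HHT2-HHF2, chrXIV:576309-576409, histone UAS in capitals: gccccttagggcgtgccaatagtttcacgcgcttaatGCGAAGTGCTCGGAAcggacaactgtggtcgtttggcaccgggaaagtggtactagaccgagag
HHT2-HHF2, chrXIV:576409-576509, SBF sites in capitals: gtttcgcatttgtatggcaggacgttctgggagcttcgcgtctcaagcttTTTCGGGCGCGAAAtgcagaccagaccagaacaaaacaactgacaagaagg

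The motifs were searched on both strands. The histone UAS was written as TTCCNNNNNNTTCNC, the SBF site as CNCGAAA, the MBF site (MCB) as ACGCGT, and the TATA sequence as TATAAA or TATATA. The last of these forms was added after the sequence under the HTA2-HTB2 peak had been seen. The UAS is a motif of histone promoters, so its presence in them is a description and carries no weight as a test. It occurred in all 4 shared promoters, of 646 to 817 bp. The share was 3.75% of 5999 upstream regions of 646 bp, the length of the shortest shared promoter. It lay wholly within 50 bp of 4 of the 10 promoter peaks, 1 in each pair, against 0.675% of the 5782 high-confidence promoter peaks of the genome. The 10 peaks, here and for the motifs below, include the UAS peak at 915125, which was not high-confidence, so the sets are not fully alike. The SBF site was found in the HTB1-HTA1 and HHT2-HHF2 promoters (2 of 4, against 26.0% of upstream regions) and at 2 of the 10 peaks, against 7.92%. The MCB was found only in HTA2-HTB2 (1 of 4, against 6.62%), beside the UAS in the sequence shown, and at 1 of the 10 peaks, against 2.42%. TATAAA was present in 3 of 4 promoters (67.1% of upstream regions) and TATATA in 4 of 4 (52.6%), and the 2 forms overlap in the HTB1-HTA1 window shown. TATAAA lay at 1 of the 10 peaks, against 10.9%, and TATATA at 2 of 10, against 7.28%. A match describes these letters and not an occupied site.

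The level of short fragments was compared first between the shared promoters and the coding sequences. Per peak the promoters stood higher in every pair. Summed over the 10 promoter peaks, the control libraries held 178 ± 24.1 normalised reads (SD over the 12 time points, as in the following ranges), or 17.8 per peak, and the coding peaks 6.90 per peak. In SSDDCS these levels were 17.9 and 6.48 normalised reads per peak. The median histone promoter peak held 17.6 normalised reads per library, against a median of 13.4 (quartiles 10.1 and 19.5) for the 5769 high-confidence promoter peaks elsewhere. The median histone coding peak held 6.09 normalised reads, against 4.31 for 44866 coding peaks elsewhere.

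**Figure D1:**
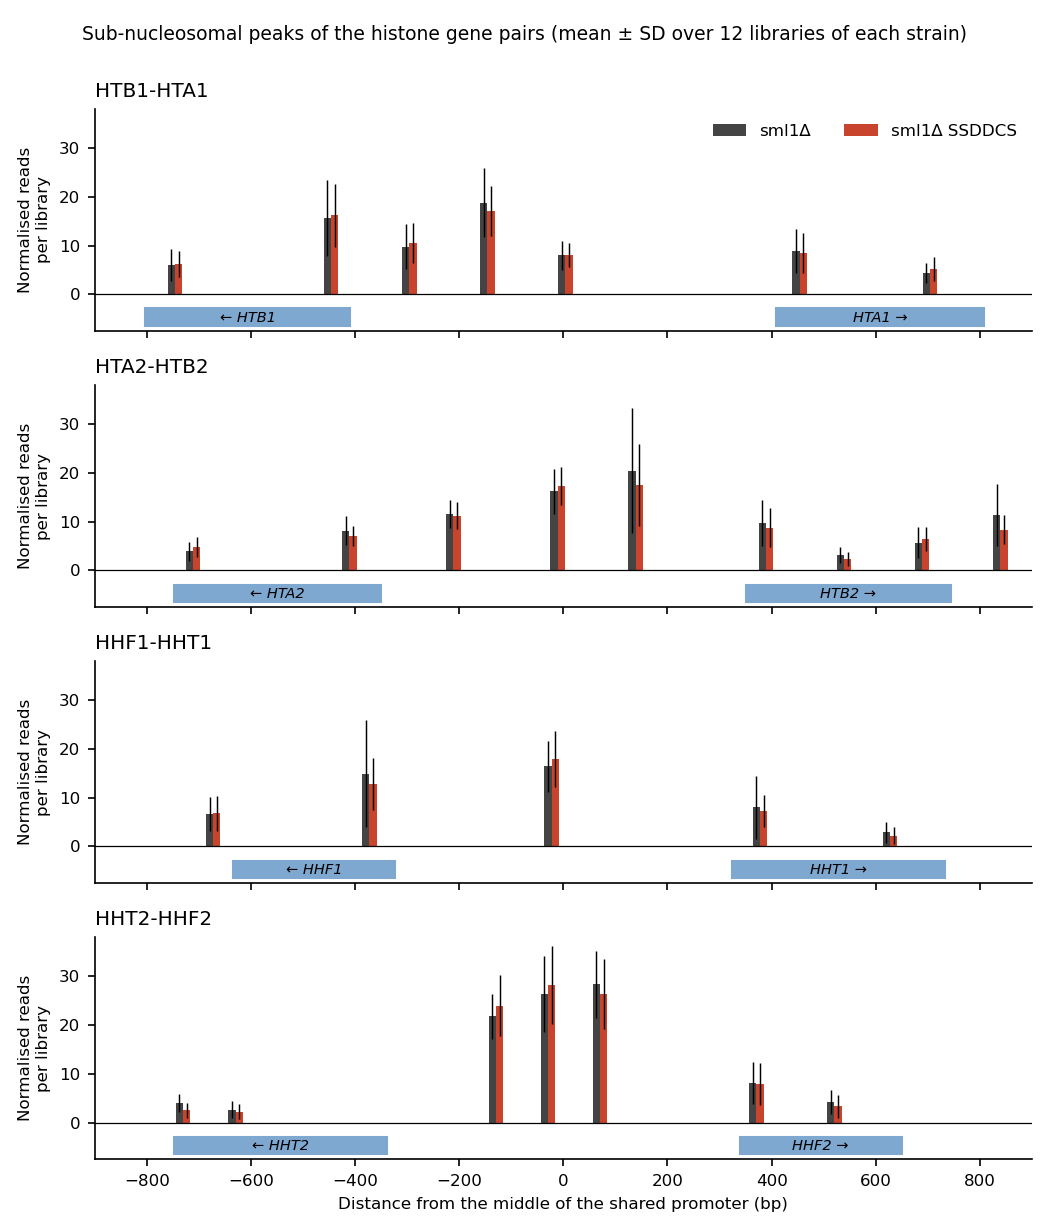
Mean normalised reads per library (vertical axis) of each of the 28 peaks against its distance in bp from the middle of the shared promoter, with the sml1∆ control in grey and sml1∆ SSDDCS in red. Bars are means and lines SDs over the 12 libraries of a strain, which are time points and not replicates, and blue boxes are coding sequences. The 3 HHT2-HHF2 promoter peaks are the tallest, with means of 21.8 to 28.4 normalised reads in the control.

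The 4 pairs differed in this contrast. The log2 ratio of promoter to coding reads per peak was 2.51 ± 0.78 for HHT2-HHF2 in the control and 2.75 ± 0.58 in SSDDCS, and it was above 0 in 12 of 12 libraries of each strain. For HTA2-HTB2 it was 1.39 ± 0.59 and 1.40 ± 0.24, above 0 in 12 of 12 libraries of each. HTB1-HTA1 had the lowest contrast, 0.54 ± 0.48 and 0.44 ± 0.37, and the coding peaks were the higher ones in 2 control libraries and 1 SSDDCS library. For HHF1-HHT1, which has a single promoter peak, the ratio was 1.19 ± 1.28 in the control and 1.29 ± 0.76 in SSDDCS. The control value of that pair ranged from 2.95 at 5 min down to -1.22 at 15 min. In the order HHT2-HHF2, HTA2-HTB2, HHF1-HHT1 and HTB1-HTA1, neighbours overlapped within 1 SD in the control, and in SSDDCS all but the first and the second did. Counted per 100 bp of sequence instead of per peak, the ratio became 0.04 for HTB1-HTA1 and -0.18 for HHF1-HHT1 as a mean over the 24 libraries of both strains, so that for those 2 pairs the promoter excess depended on counting per peak.

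In the HHT2-HHF2 promoter, 3 peaks stood 100 bp apart. The peak at 576459 over the SBF sites had 28.4 ± 6.89 normalised reads in the control and 26.4 ± 7.24 in SSDDCS. The peak at 576359 over the UAS had 26.4 ± 7.84 and 28.2 ± 7.94, and the peak at 576259, with none of the motifs, 21.8 ± 4.55 and 24.01 ± 6.34. These were the 3 highest means of the 10 promoter peaks in each strain, and their ranges of 1 SD overlapped. In the HTB1-HTA1 promoter the strongest peak was the one over SBF sites, at 914975, with 18.8 ± 7.10 and 17.1 ± 5.08 normalised reads. The peak over the pair of UAS matches at 915125 had 7.98 ± 2.98 and 8.06 ± 2.42, which left it just under the high-confidence threshold at a sum of 74.8. The single HHF1-HHT1 promoter peak, at 255985 over the UAS, had 16.4 ± 5.18 and 18.0 ± 5.73 normalised reads.

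In the coding sequences the strongest peak of 7 of the 8 genes lay within 100 bp inside the start codon. HTB1 had 15.7 ± 7.74 normalised reads in the control at a peak 37 bp inside, and HHF1 had 14.9 ± 11.0 at 49 bp inside. HTB2 had 9.76 ± 4.71 at 39 bp, HTA1 8.85 ± 4.58 at 45 bp, HTA2 8.18 ± 2.96 at 61 bp, HHT1 8.03 ± 6.43 at 54 bp and HHF2 8.02 ± 4.31 at 32 bp. HHT2 had no such peak, and its strongest, 392 bp inside, had 3.96 ± 1.84. The median of the 7 start-codon peaks was 8.62 normalised reads over all libraries, against 5.49 for 3085 coding peaks at the same distance from other start codons.

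**Figure D2:**
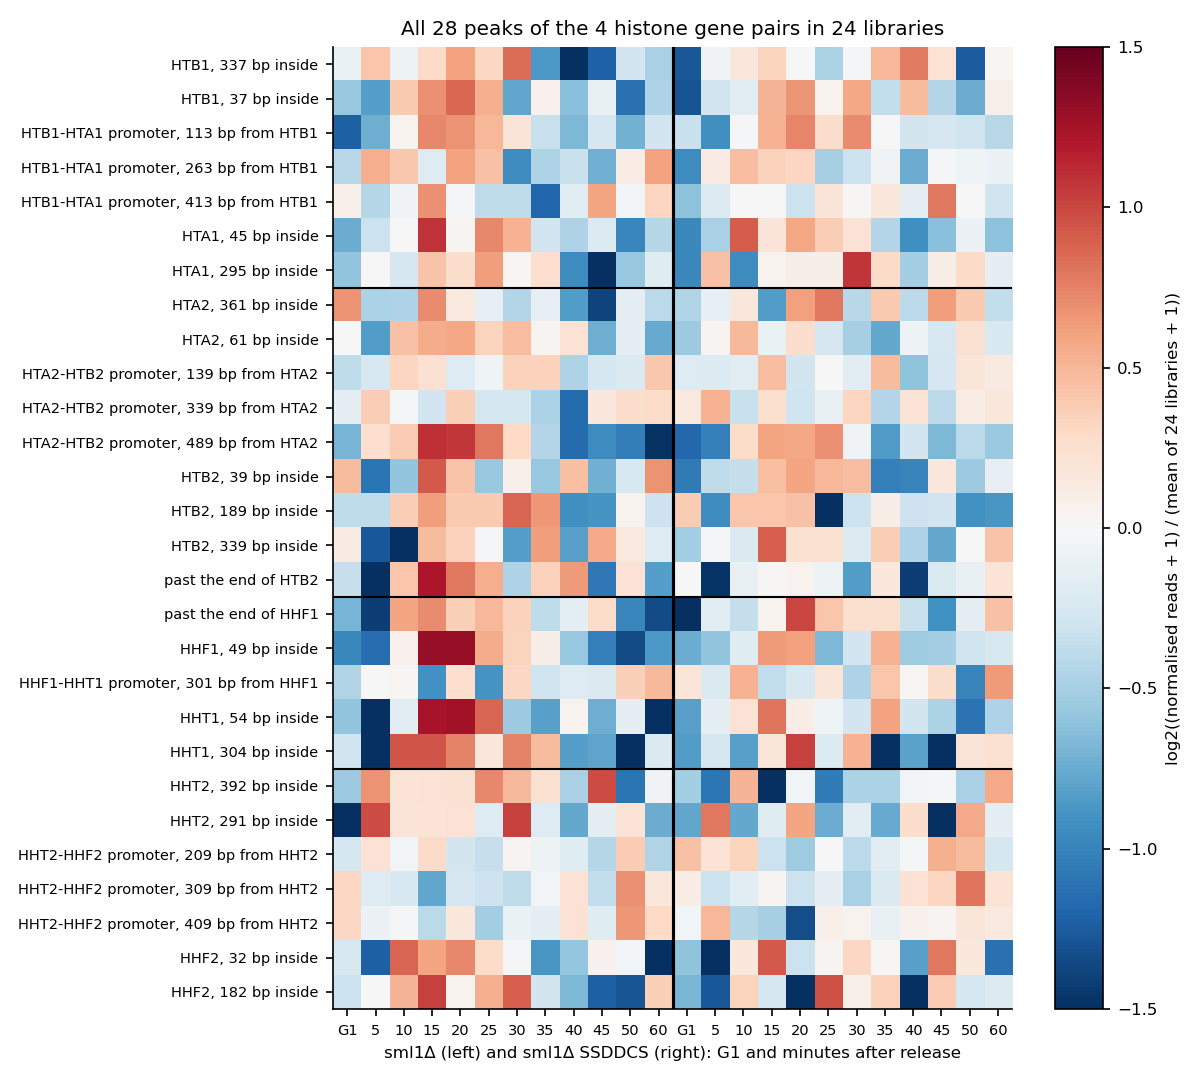
Colour gives log2 of (normalised reads + 1) of each of the 28 peaks (rows) over its mean in the 24 libraries (columns), with control libraries on the left, SSDDCS libraries on the right and black lines between the pairs. Peaks just inside start codons are mostly red at 10 to 25 min, with single libraries below the mean, such as HTB2 in the control at 10 and 25 min. The HTA2-HTB2 promoter peak 489 bp from HTA2 turns red at 10 to 25 min, whereas the HHT2-HHF2 promoter peaks do not.

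How these levels moved through the cell cycle was asked next, within each strain against its own G1 library. Coding reads of the 4 pairs rose early and were highest at 15 min in both strains. In the control the 16 coding peaks summed to 85.2 normalised reads in G1, 67.7 at 5 min, 118 at 10, 201 at 15, 181 at 20, 146 at 25, 125 at 30 and 100.3 at 35 min, and then stayed between 70.9 and 77.9 from 40 to 60 min. In SSDDCS they summed to 56.0 in G1, 83.3 at 5 min, 114 at 10, 145 at 15, 143 at 20, 109 at 25, 120 at 30 and 107 at 35 min, and stayed between 88.3 and 96.1 afterwards. The control course returned to its G1 level, whereas every SSDDCS library after G1 lay above the SSDDCS G1 library.

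Pooled over 20 to 35 min and set against G1, coding reads were 1.62-fold higher in the control (log2 0.70, interval 0.37 to 1.03) and 2.13-fold higher in SSDDCS (log2 1.09, 0.69 to 1.52). Over 40 to 60 min the log2 ratio was -0.18 (-0.53 to 0.17) in the control and 0.71 (0.30 to 1.14) in SSDDCS. The reference for SSDDCS was a G1 library with 57 coding reads against 90 in the control, a log2 difference of -0.60 (-1.11 to -0.11), so these ratios start from unequal levels. Most of that gap lay in HTA2-HTB2, with 39 control and 20 SSDDCS coding reads in G1.

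Promoter reads moved less. The 10 promoter peaks summed to 160 normalised reads in the control G1 library and to between 145 and 218 afterwards, and to 165 in SSDDCS G1 and between 160 and 199 afterwards. Against G1 the log2 ratios of the spans 5 to 15, 20 to 35 and 40 to 60 min were 0.23, 0.15 and 0.14 in the control and 0.16, 0.05 and 0.17 in SSDDCS, and each of these 6 intervals included 0. The sum hid opposite courses in single pairs. HTB1-HTA1 promoter reads over 5 to 15 min were above G1 by log2 0.73 (0.12 to 1.38) in the control and 0.89 (0.23 to 1.62) in SSDDCS, and those of HTA2-HTB2 by 0.77 (0.25 to 1.32) and 0.50 (-0.02 to 1.06). The HHF1-HHT1 promoter peak showed no course beyond its counting error, at 0.23 (-0.68 to 1.25) and -0.16 (-0.93 to 0.66). HHT2-HHF2 promoter reads over 20 to 35 min were below G1, by log2 -0.35 (-0.70 to 0.01) in the control and -0.44 (-0.79 to -0.07) in SSDDCS, and over 40 to 60 min they were back at -0.00 and 0.09. Promoter peaks of all genes together were at -0.37 and -0.41 over 20 to 35 min, so this fall was near that of other promoters. Over 40 to 60 min promoter peaks of all genes were at -0.18 and -0.25.

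**Figure D3:**
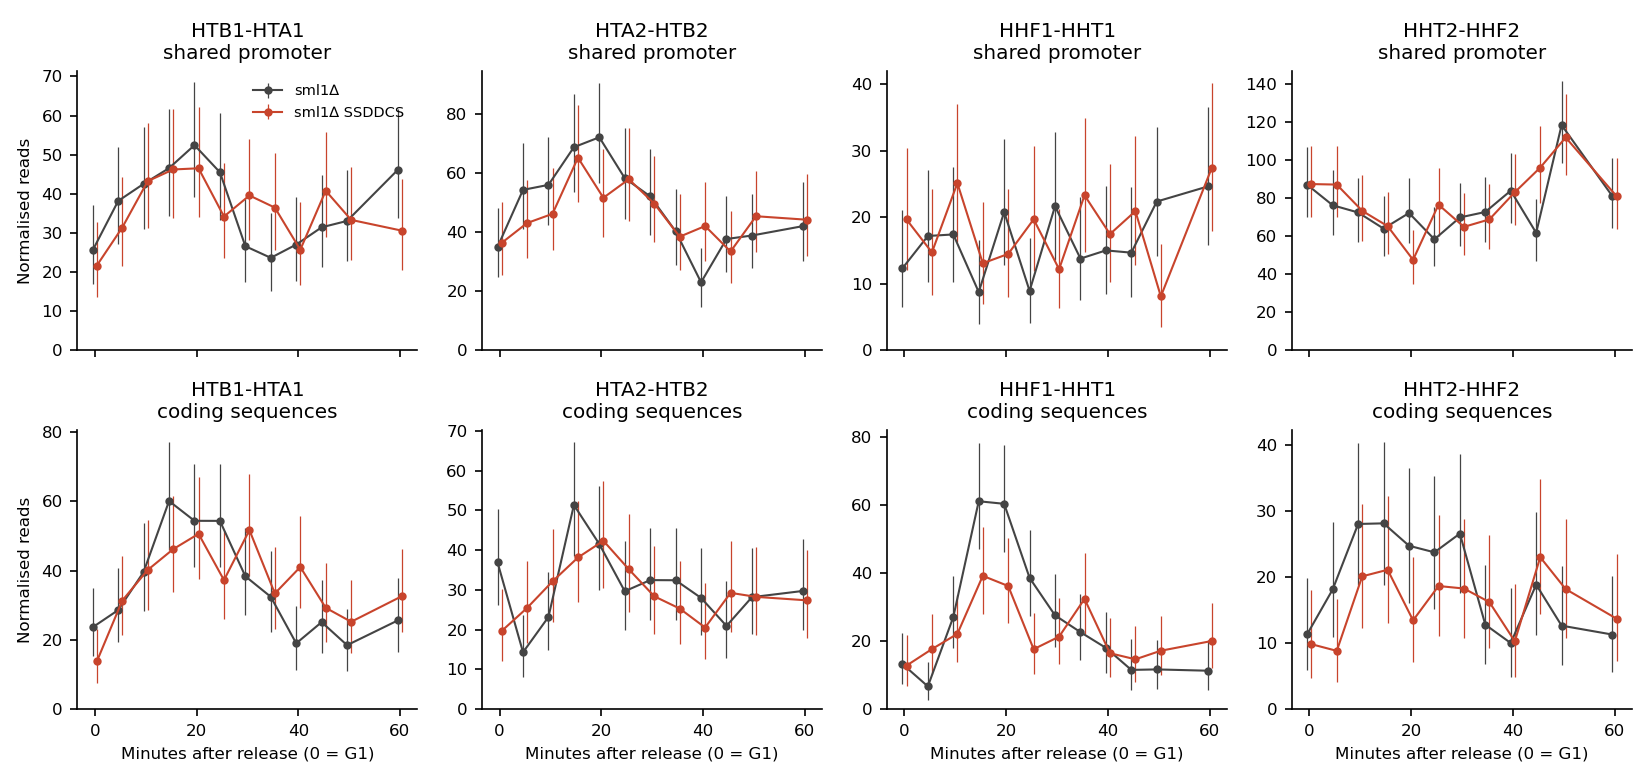
Summed normalised reads (vertical axes, from 0, on separate scales) of the shared promoter (top) and the coding sequences (bottom) of each pair against minutes after release, with G1 at 0, for the control (grey) and SSDDCS (red). Vertical lines are 95% exact Poisson intervals of 1 library each. HHF1-HHT1 coding reads reach 61.1 normalised reads in the control at 15 min and 39.2 in SSDDCS, while the HHT2-HHF2 promoter is highest at 50 min in both strains.

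The rise of coding reads was concentrated in a short span and near the start codons. The span of 10 to 25 min, the start-codon group and the reference of all other time points but 30 min were chosen after the courses had been seen, so the values that follow describe these libraries and carry no weight as a test. The 7 start-codon peaks together gave 53.9 normalised reads in control G1, 32.4 at 5 min, 83.1 at 10, 143 at 15, 132 at 20, 99.9 at 25, 72.8 at 30 and between 44.7 and 60.0 from 35 to 60 min. In SSDDCS they gave 35.4 in G1, 50.9 at 5 min, 79.4 at 10, 105 at 15, 99.2 at 20, 71.4 at 25, 80.1 at 30 and between 55.5 and 66.8 afterwards. Both courses peaked at 15 min, and the control course was the taller and narrower.

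Over 10 to 25 min the start-codon peaks stood 2.30-fold above the remaining libraries in the control (log2 1.20, 1.00 to 1.41) and 1.62-fold in SSDDCS (log2 0.69, 0.48 to 0.91). The intervals did not overlap, but against G1 alone the order turned, to log2 1.09 (0.69 to 1.51) in the control and 1.33 (0.83 to 1.87) in SSDDCS, and the difference between the strains was not tested. Start-codon peaks of all genes, summed, were at log2 -0.03 and -0.01 over the same contrast. The flanks, meaning peaks 1 to 10 kb outside the pairs, whose reads also follow how much DNA of the region is present, were at 0.16 and 0.05. The part of DNA copy number in the coding rise was not tested further.

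**Figure D4:**
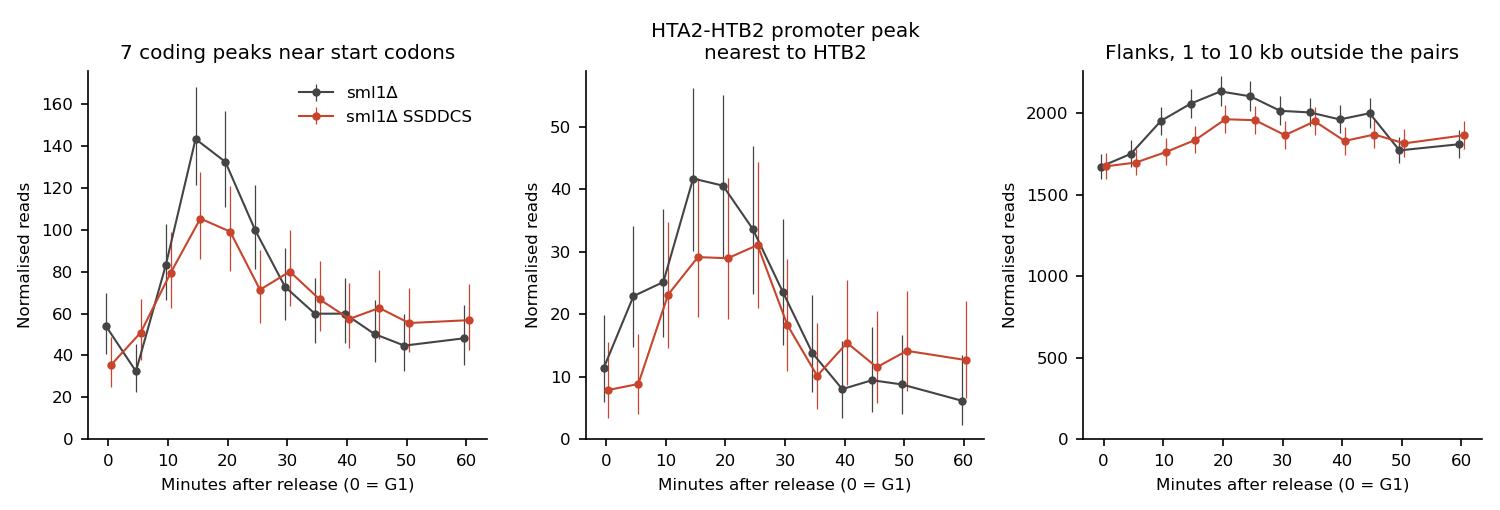
Normalised reads (vertical axes, from 0) against minutes after release, with G1 at 0, for the 7 start-codon peaks summed (left), the HTA2-HTB2 promoter peak nearest to HTB2 (middle) and the flanking peaks 1 to 10 kb outside the pairs (right). Control is grey, SSDDCS red, and vertical lines are 95% exact Poisson intervals of 1 library. The start-codon sum reaches 143 normalised reads at 15 min in the control and 105 in SSDDCS, while the flanks stay between 1674 and 2135.

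In the control HHF1 and HHT1 had the largest contrasts of the 7 genes with a start-codon peak. The HHF1 start-codon peak held 7 reads in control G1, 6 at 5 min, 15 at 10, 37 at 15, 36 at 20, 21 at 25, 18 at 30, 15 at 35, 9 at 40, 6 at 45, 5 at 50 and 7 at 60 min. In SSDDCS it held 8, 9, 12, 22, 21, 8, 11, 20, 9, 9, 11 and 11 reads at the same times. The control libraries at 15 and 20 min stood above all others, and the SSDDCS course had a lower maximum and a further high library at 35 min. The 10 to 25 min contrast was log2 1.78 (1.30 to 2.27) in the control and 0.52 (0.02 to 1.02) in SSDDCS. Ordered by this contrast on the log2(normalised reads + 1) scale, the HHF1 peak was rank 1 of the 8217 high-confidence peaks of the control and rank 253 in SSDDCS.

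HHT1, which shares the promoter with HHF1, was also highest at 15 and 20 min in the control. Its start-codon peak held 5, 1, 7, 20, 20, 15, 5, 4, 8, 4, 7 and 2 reads in the control and 4, 7, 9, 14, 8, 7, 6, 12, 6, 5, 3 and 5 in SSDDCS, a contrast of log2 1.79 (1.15 to 2.46) and 0.67 (-0.00 to 1.34). The promoter peak between HHF1 and HHT1 did not share it. It held 13, 18, 18, 9, 21, 9, 22, 14, 15, 14, 23 and 24 reads in the control and 20, 15, 25, 13, 14, 19, 12, 23, 17, 20, 8 and 26 in SSDDCS, with contrasts of -0.29 (-0.77 to 0.17) and -0.05 (-0.49 to 0.38).

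HTB1 held 11, 9, 22, 27, 30, 24, 9, 17, 10, 14, 7 and 11 reads at its start-codon peak in the control and 6, 13, 14, 23, 25, 16, 24, 12, 22, 11, 9 and 16 in SSDDCS, with contrasts of 1.18 (0.74 to 1.62) and 0.62 (0.17 to 1.08). HTA1, its partner, held 5, 7, 9, 20, 9, 15, 13, 7, 6, 7, 4 and 6 in the control and 4, 6, 17, 10, 13, 11, 10, 6, 4, 5, 8 and 5 in SSDDCS, with contrasts of 1.13 (0.52 to 1.75) and 1.24 (0.60 to 1.88). The HTA1 contrasts were of similar size in both strains. HHF2 had contrasts of 1.31 (0.68 to 1.96) and 0.61 (-0.05 to 1.26), and HTA2 0.83 (0.19 to 1.46) and 0.37 (-0.33 to 1.05). HTB2 had the reverse order, with 0.23 (-0.36 to 0.80) in the control, where its G1 library held 14 reads, and 0.94 (0.31 to 1.57) in SSDDCS, where G1 held 4.

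By a bound of 1.5-fold on the log2(normalised reads + 1) scale, 6 of the 7 start-codon peaks were past it in the control, all but HTB2, against 4.37% of the 3092 start-codon peaks of the genome. In SSDDCS 3 of 7 were past it, against 4.62%. Of the 14 high-confidence peaks of the pairs, 6 were past it in the control, against 1.27% of 8217, and 4 in SSDDCS, against 1.52%. Because the span was chosen on these peaks, nothing is read from these shares. In the control the ranks among the 3092 start-codon peaks were 1 for HHF1, 2 for HHT1, 4 for HHF2, 7 for HTB1, 11 for HTA1, 55 for HTA2 and 715 for HTB2. In SSDDCS HTA1 was at 9 and HTB2 at 33, and the other 5 were between 143 and 494. The 9 coding peaks further inside the genes had a median contrast of 0.67 in the control and 0.23 in SSDDCS on that scale, below the medians of 1.10 and 0.58 of the start-codon peaks.

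The HTA2-HTB2 promoter contained the promoter peak with the largest rise. The peak at 236281, 211 bp before the HTB2 start codon and over TATATA in the sequence shown, held 12 reads in control G1, 24 at 5 min, 26 at 10, 43 at 15, 41 at 20, 34 at 25, 24 at 30, 14 at 35, 8 at 40, 9 at 45, 9 at 50 and 6 at 60 min. In SSDDCS it held 8, 9, 23, 29, 28, 30, 18, 10, 15, 11, 14 and 12 reads. Both courses were single humps, and at 5 min the control already held 24 reads where SSDDCS held 9. Its 10 to 25 min contrast was log2 1.61 (1.20 to 2.01) in the control and 1.29 (0.86 to 1.73) in SSDDCS, rank 2 and rank 1 of the 8217 high-confidence peaks. The other 2 peaks of that promoter, including the one over the UAS, had contrasts of 0.19 and -0.01 in the control and 0.07 and -0.20 in SSDDCS.

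The next promoter peak in size of contrast was at 914825 in HTB1-HTA1, 113 bp before the HTB1 start codon, and it too lay over a TATA sequence. It held 4, 6, 11, 18, 17, 15, 12, 8, 6, 8, 6 and 8 reads in the control and 8, 5, 10, 15, 17, 12, 17, 10, 8, 8, 8 and 7 in SSDDCS, with contrasts of 1.20 (0.62 to 1.78) and 0.81 (0.24 to 1.39). Of the 10 promoter peaks, these 2 were the ones with a TATA sequence wholly within 50 bp. They were also the ones past 1.5-fold in each strain. The observation was made after the values were seen and was not tested. It also depended on the 50 bp limit and on the TATATA form. A TATATA centred 49.5 bp from the HTA2-HTB2 promoter peak at 235931 lay partly past that limit. The peak at 235931 had contrasts of 0.19 in the control and 0.07 in SSDDCS. Of the 2 counted peaks, the HTA2-HTB2 one had only TATATA, the form added after its sequence had been seen. The 4 peaks over a UAS had contrasts between -0.55 and 0.18 in the control and between -0.35 and -0.04 in SSDDCS. The SBF-site peaks went apart, at 0.37 (-0.03 to 0.77) and 0.44 (0.01 to 0.87) in HTB1-HTA1 and at -0.37 (-0.72 to -0.02) and -0.61 (-1.01 to -0.23) in HHT2-HHF2.

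The HHT2-HHF2 promoter stood lower at 10 to 25 min, when the start-codon peaks stood higher. Its 3 peaks together had a 10 to 25 min contrast of log2 -0.32 (-0.53 to -0.11) in the control and -0.42 (-0.64 to -0.21) in SSDDCS. Promoter peaks of all genes together were at -0.11 and -0.10. On the log2(normalised reads + 1) scale the peaks at 576259, 576359 and 576459 ranked 2632, 7405 and 6281 of the 8217 high-confidence peaks in the control. In SSDDCS they ranked 6151, 6524 and 7794. None lay below the 5% quantile of those 8217 peaks, -0.64 in the control and -0.59 in SSDDCS, so single peaks were within the usual spread. The peak at 576259 was flat in the control, at 0.01 (-0.38 to 0.40), and at -0.31 (-0.70 to 0.07) in SSDDCS. The UAS peak at 576359 held 36, 25, 24, 16, 23, 22, 21, 27, 32, 20, 46 and 30 reads in the control and 30, 22, 24, 28, 21, 24, 19, 23, 31, 33, 48 and 30 in SSDDCS, with its maximum at 50 min in both strains. HHF2 in the same pair rose while this promoter was low. Across the 24 libraries, as a description with no p because time points of 1 culture are not independent, the summed start-codon reads had a Pearson r of 0.86 with the HTA2-HTB2 peak at 236281, 0.76 with the whole HTA2-HTB2 promoter, 0.70 with the HTB1-HTA1 promoter, -0.29 with the HHF1-HHT1 promoter and -0.55 with the HHT2-HHF2 promoter. The flanks had an r of 0.67.

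The strains were then compared at matched time points, as log2 of SSDDCS over control. For the shared promoters the log2 ratio pooled over all time points after G1 was 0.00 (-0.09 to 0.09), from 1999 control and 1940 SSDDCS reads, and SSDDCS was the higher at 5 of 11 time points. By pair it was -0.02 (-0.22 to 0.18) for HTB1-HTA1, -0.08 (-0.25 to 0.10) for HTA2-HTB2, 0.08 (-0.22 to 0.38) for HHF1-HHT1 and 0.04 (-0.10 to 0.18) for HHT2-HHF2. In G1 it was 0.05 (-0.27 to 0.36). Summed promoter reads were apart beyond counting error at 20 min, by -0.44 (-0.75 to -0.14), and at 45 min, by 0.39 (0.07 to 0.72), and at no other time point after G1. For comparison, promoter peaks of all genes together had a pooled log2 ratio of -0.08.

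Coding reads also had a pooled ratio near 0, at log2 -0.06 (-0.18 to 0.05) from 1257 control and 1165 SSDDCS reads, with SSDDCS higher at 6 of 11 time points, but this pooled value joined spans of opposite sign. It was -0.17 (-0.39 to 0.04) over 5 to 15 min, -0.21 (-0.39 to -0.03) over 20 to 35 min and 0.29 (0.06 to 0.52) over 40 to 60 min. At single time points SSDDCS was lower beyond counting error at 15 min (-0.47), 20 min (-0.34) and 25 min (-0.43). Over 10 to 25 min, chosen after the courses were seen, the ratio was -0.34 (-0.51 to -0.17), from 660 and 501 reads, and left out 0 without any 1 of its time points. The 20 to 35 min ratio did not, at -0.15 (-0.36 to 0.07) without 20 min and -0.14 (-0.34 to 0.07) without 25 min. The direction of this sum before 40 min also depended on the reference. In G1 the ratio was already -0.60 (-1.11 to -0.11), and with that subtracted it was 0.27 over 10 to 25 min, 0.40 over 20 to 35 min and 0.89 over 40 to 60 min. The flanks had lower ratios as well over 10 to 25 min, between -0.16 and -0.10 at each of the 4 time points of that span.

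Over 10 to 25 min the ratio was below 0 beyond counting error for the H3-H4 pairs. HHF1-HHT1 coding reads over 10 to 25 min numbered 191 in the control and 113 in SSDDCS, a log2 ratio of -0.70 (-1.05 to -0.36), and those of HHT2-HHF2 107 and 72, a ratio of -0.51 (-0.96 to -0.07), which without 20 min was -0.42 (-0.93 to 0.08). At 5 min HHF1-HHT1 went the other way, with 7 control and 18 SSDDCS reads, a ratio of 1.40 (0.07 to 2.90). For HTB1-HTA1 the ratio was -0.26 (-0.56 to 0.04), and for HTA2-HTB2 0.02 (-0.32 to 0.36), both over 10 to 25 min. Over 40 to 60 min it was 0.54 (0.14 to 0.96) for HTB1-HTA1, from 87 and 124 reads, but 0.34 (-0.14 to 0.82), from 68 and 84, without the 40 min libraries. It was 0.38 (-0.17 to 0.93) for HHF1-HHT1, 0.31 (-0.24 to 0.87) for HHT2-HHF2 and -0.02 (-0.43 to 0.38) for HTA2-HTB2. The HTA2-HTB2 promoter peak at 236281 was at -0.56 (-1.05 to -0.08) over 5 to 15 min and 0.73 (0.07 to 1.42) over 40 to 60 min. The first interval included 0 without 5 min, at -0.35 (-0.90 to 0.19), or 15 min, at -0.60 (-1.28 to 0.07), and the second without 40 min (0.66, -0.12 to 1.46), 50 min (0.75, -0.03 to 1.56) or 60 min (0.65, -0.10 to 1.42). Whether the pairs differ from each other was not tested.

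**Figure D5:**
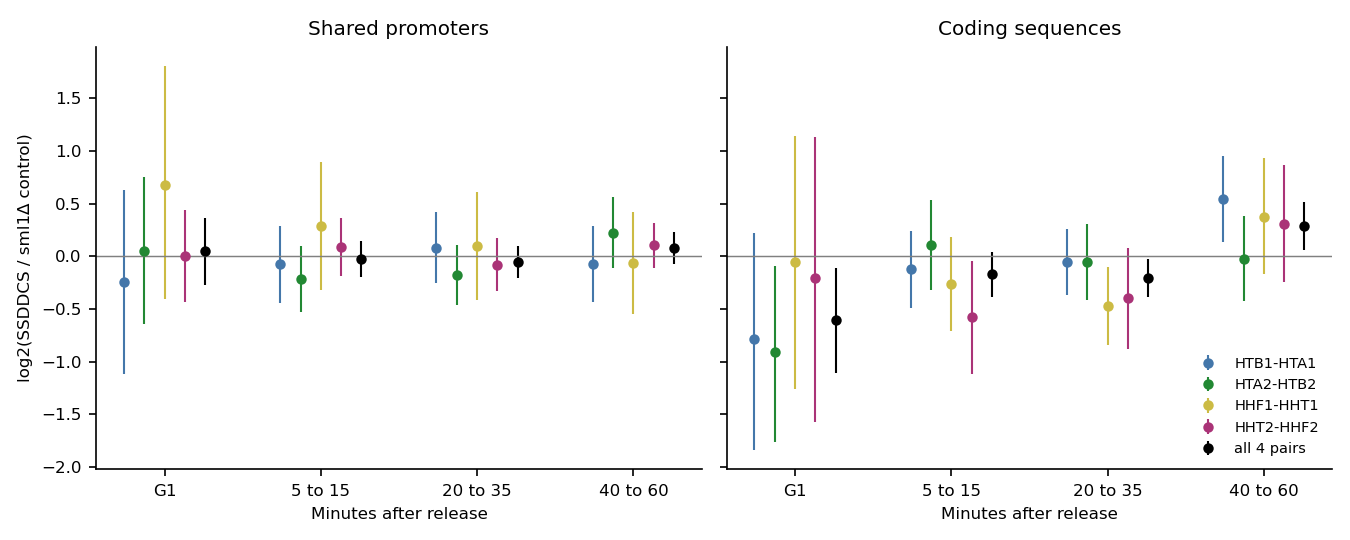
Log2 ratio of SSDDCS to control reads (vertical axis) for the shared promoters (left) and the coding sequences (right), in G1 and pooled over 3 spans of minutes after release. Points are the 4 pairs and their sum, and vertical lines are 95% exact intervals for counting error. Coding ratios of the 4 pairs together pass from -0.21 at 20 to 35 min to 0.29 at 40 to 60 min, while the promoter ratios of the 4 pairs together stay between -0.06 and 0.08.

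The study calls a peak changed when the strains differ at least 2-fold at any time point after release, and by this rule 8 of the 14 high-confidence peaks of the pairs were changed, against 64.2% of all 8217. In the shared promoters it was 4 of 9, against 62.5% of 5782 promoter peaks, and in the coding sequences 3 of 4, against 72.1% of 2682. These shares were near the background, so the calls did not set the histone pairs apart. None of the 14 had the same sign at all 11 time points (0 of 14, against 1.23%). With a pseudocount of 10 in place of 1, 0 of the 14 passed 2-fold, against 4.79% of the 8217.

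Among all 28 peaks, 4 were past 2-fold at 4 or more time points, against 30.2% of all 58467 peaks. All 4 were coding peaks outside the high-confidence set, where 35.3% of 42200 peaks of the genome were past it, so the count does not set the pairs apart. They were the HHT1 start-codon peak (4 time points), the HHT1 peak 304 bp inside (5), the HHT2 peak 392 bp inside (4) and the HHF2 peak 182 bp inside (6). The last held between 1 and 9 reads in control libraries and between 0 and 8 in SSDDCS libraries, and its pooled log2 ratio was -0.36 (-1.02 to 0.28). Of the 4, only the HHT2 peak had a pooled interval that left out 0, at -0.72 (-1.47 to -0.01).

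Other histone genes, histone gene regulators and histone chaperones were examined through their own promoter peaks. The list held 18 genes for variant and linker histones, the HIR complex, activators, and chaperones with their partners. They are called the regulators below for short, although not all of them act on these promoters. Of the 18, 11 had a high-confidence promoter peak within 1000 bp upstream. Some promoter peak was 2-fold higher in SSDDCS at 1 or more time points for 6 of the 11, against 48.2% of 4720 genes, and 2-fold lower for 7 of 11, against 55.5%. Their median mean log2 ratio after G1 was -0.01, against -0.05 over all genes. HIR1, a subunit of the HIR corepressor, had the highest mean at 0.44, and SWI4, the DNA-binding subunit of SBF, the lowest at -0.26. Each of these means rested on 1 promoter peak, and in G1 the ratios were 0.05 for HIR1 and 0.46 for SWI4. Over all genes the means ranged from -2.36 to 1.92. HTZ1, which encodes the H2A.Z variant, was at 0.06. SPT10 had no high-confidence promoter peak, so no value is given for it.

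The paralogous coding sequences share some sequence, so reads could be placed at the wrong copy. Of all stretches of 50 bases, 21.3% in HHF1 and HHF2, 12.2% in HHT1 and HHT2, 4.57% in HTA1 and HTA2 and 0 in HTB1 and HTB2 were found elsewhere in the genome. Within 50 bp of the peaks this held only for the start-codon peaks of HTA1 (32.7%) and HTA2 (9.62%). The stretches within 50 bp of all other start-codon peaks, including those of HHF1 and HHT1, and of all promoter peaks were unique at this length. The counting width is not given, so reads counted from further out are not covered by this. Where an aligner places shorter fragments was not tested.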

How the data were processed

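Read counts were used as the authors deposited them, as whole-number counts per peak with 1 column per library. Per the study's methods, the authors mapped paired fragments under 100 bp with Bowtie2 to the S288C genome, drew equal numbers of reads at each fragment size from every library, called peaks on merged libraries and counted reads per peak. The submitters' processing notes name Bowtie2 2.2.6, SAMtools 0.1.19 and sacCer3. This sampling hides differences in digestion that change fragment length. The counting width and whether positions start at 0 or 1 are not given in the sources used here, so distances may be off by 1 bp. The G1 column was matched to its library as the 1 column named for time 0. Columns with no sample numbered 0.

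Counts were scaled by library totals of 481930 to 536253 reads, which for a peak of 10 reads leaves wide counting intervals. Python 3.11.15, numpy 2.4.6, scipy 1.17.1 and pandas 2.3.3 were used. Ratios of summed reads carry 95% exact (Clopper-Pearson) intervals and sums exact Poisson intervals. Peak-level log2 values used a pseudocount of 1, and contrasts of pooled reads used none. Code was tested on simulated data. The pairs, the gene list, the tests and the spans were chosen with earlier results of these data known. Named were all promoter peaks of the pairs, the strongest coding peak of each gene, peaks with 1 sign at all 11 time points or past 2-fold at 4 or more, and of the regulators the highest, the lowest, HTZ1, SPT10 and SWI4. Other peaks were named after their values were seen. Alternatives changed the pseudocount, fold, total, reference, peak set and scaling, and left out single time points.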

Additional observations from a re-analysis of the deposited data

How the results depend on the processing

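Of 670 recomputed values, 623 kept their direction and stayed within the main spread, 44 moved and 3 reversed. The log2 promoter over coding ratio per 100 bp, as a mean over the 24 libraries, was 0.037 for HTB1-HTA1, 0.84 for HTA2-HTB2, 0.90 for all 4 pairs and, reversed, -0.18 for HHF1-HHT1. The ratio per peak, in place of per 100 bp, was 0.88 for HTA2-HTB2 and 0.76 for all pairs with high-confidence peaks alone. Without peaks within 100 bp of a start codon it was 1.23, 1.87 and 2.198 for HTB1-HTA1, HTA2-HTB2 and all pairs, and gave no value for HHF1-HHT1, where a library had no coding read left. After subtraction of the G1 ratio the strain ratios were 0.22 and -0.59 in the HTB1-HTA1 and HHF1-HHT1 promoters and 0.86, 0.91 and 0.54 in the coding sequences of HTB1-HTA1, HTA2-HTB2 and all pairs, since the G1 coding ratio itself was -0.60. Scaled to the flanks, control promoter reads over 20 to 35 min were at -0.15 against G1. With G1 and 5 min together as reference, control coding reads at 10 and 15 min were at 1.06. With all times but 30 min as reference the SSDDCS start-codon rise was 0.69 in place of 1.33. With a pseudocount of 10 the 2-fold counts were 0 for the 14 members, 0 for promoters, 0 for coding peaks and 0 for the regulators, against 4.79%, 5.19% and 4.47% of high-confidence peaks, promoter peaks and coding peaks of the genome. At 3-fold they were 1, 0 and 0, against 15.4%, 14.4% and 19.8%. At 1.5-fold 7 of 9 promoter peaks passed, against 96.8%. Over all peaks of the windows 21 of 28 passed, against 91.4%, of which 14 of 16 were coding, against 94.6%. Less the G1 ratio, the coding strain ratios turned from -0.34 to 0.27 over 10 to 25 min and from -0.21 to 0.40 over 20 to 35 min. The cause of the other shifts was not tested.

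The 10 to 25 min span, the start-codon group and its reference, the time points left out of single spans and the G1 ratio subtracted within them were added after the data were seen. No paired analysis was possible because every group held a single library. Depth limits the single peaks: most coding peaks held fewer than 10 reads per library, so a 2-fold call at 1 time point rests on few reads.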

Other observations

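The 2 peaks beyond stop codons, 1 at each of the chromosome II pairs, were highest at 15 min in the control. The peak at 236981, past the end of HTB2, held 8, 3, 14, 25, 18, 15, 7, 13, 16, 4, 12 and 5 reads in the control from G1 to 60 min and 10, 3, 9, 10, 10, 9, 5, 11, 3, 8, 9 and 11 in SSDDCS. Its control libraries at 15 and 20 min were the highest, and its 10 to 25 min contrast was log2 1.03 (0.52 to 1.55) in the control and 0.28 (-0.36 to 0.90) in SSDDCS. After G1 its pooled log2 ratio of SSDDCS to control was -0.54 (-0.95 to -0.14), with SSDDCS lower at 8 of 11 time points. The peak at 255335, past the end of HHF1, had contrasts of 1.28 (0.57 to 2.005) and 0.73 (0.02 to 1.44) and a pooled strain ratio of 0.10 (-0.37 to 0.57).

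In G1 the HTA2-HTB2 coding peaks held 39 reads in the control and 20 in SSDDCS, a log2 ratio of -0.91 (-1.76 to -0.10), while the other 3 pairs had intervals that included 0. At 5 min the control value of this pair had fallen to 14.3 normalised reads, the lowest of its 12 libraries.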
